A study of Bos taurus and Bos indicus with 3 samples.

Results

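The genes described here encode the constitutive subunits of the proteasome: the alpha and beta subunits of the 20S core particle (PSMA1 to PSMA7 and PSMB1 to PSMB7), the ATPases of the 19S regulatory particle (PSMC1 to PSMC6) and its other subunits and assembly chaperones (PSMD1 to PSMD14). They were matched by gene name, and the list was chosen with earlier results of these data known. Of 34 listed genes, 25 were found by symbol or by bovine protein entry name among 25968 gene models, and their values were examined in each library. The other 9, which were PSMB1, PSMC1, PSMC2, PSMC3, PSMD1, PSMD7, PSMD10, PSMD13 and PSMD14, were not matched by name and were not analysed here.

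Leukocyte RNA was compared between cows of 2 taurine breeds, Holstein and Jersey (Bos taurus), and of the indicine breed Cholistani (Bos indicus). White cells were isolated from tail vein blood that had been pooled within a breed, from 40 Holstein, 7 Jersey and 45 Cholistani cows, and polyadenylated RNA was sequenced as 1 library per breed. The labels name no treatment and give no age. The Cholistani cows were kept on a farm in Pakistan and their RNA travelled in a dry storage matrix, whereas both taurine herds were in Wisconsin, so breed, farm, transport and pool size cannot be told apart.

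The 26S proteasome degrades proteins that carry chains of ubiquitin. Its 20S core is a barrel of stacked alpha and beta rings in which PSMB5, PSMB6 and PSMB7 carry the active sites, and its 19S regulator binds ubiquitin, removes it and threads the unfolded substrate into the core. In cells of the immune system and under interferon, PSMB8, PSMB9 and PSMB10 can take the places of these 3 catalytic subunits and form the immunoproteasome, whose peptides are loaded on MHC class I. The subunits of one particle are present in fixed proportions as proteins, but their messengers need not be equally abundant.

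The levels are in FPKM, an estimate by the authors of the fragments of a model, divided by its exon length and scaled by library. The authors applied upper-quartile normalization, so the scale of a library is not set by its sequencing yield alone. Levels of different genes can be compared within a library. With 1 library per breed there was no replicate of any value, no test was possible, and the number of fragments behind each estimate is unknown. Log2 folds were computed from FPKM + 1, which understates the change of low genes. Below, 3 values in a row stand for Holstein, Jersey and Cholistani in this order. The deposited FPKM summed to 5949765, 6288105 and 9525773, and the choice of scale moved every fold that involves the Cholistani library. The median log2 fold of all 15284 models above 0 in any library was 0.15 between Cholistani and Holstein as deposited, -0.43 after the sums were set equal and -0.03 after the folds were centred on models with at least 10 FPKM. As deposited, the Cholistani level was 2-fold or more above Holstein for 3006 models and as far below it for 2099 (58.9% of the calls were higher), and with equal sums the counts were 1772 and 4205 (29.6%). In pooled leukocytes, a difference in RNA per cell and a difference in the share of a cell type cannot be told apart.

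All 25 subunit genes were above the median detected model in every library. Their levels ran from 111 to 1663 FPKM in Holstein, from 128 to 1641 FPKM in Jersey and from 131 to 3330 FPKM in Cholistani, against medians of 91.6, 89.6 and 93.8 FPKM over all models above 0. PSMC6 was the lowest member of each library, and the highest was PSMB4 in Holstein and PSMA7 in Jersey and Cholistani. The highest member therefore exceeded the lowest by 15.0 times in Holstein, 12.9 times in Jersey and 25.5 times in Cholistani. Together the 25 genes took 0.248%, 0.231% and 0.253% of all FPKM, a share that does not depend on how a library is scaled.

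**Figure D1:**
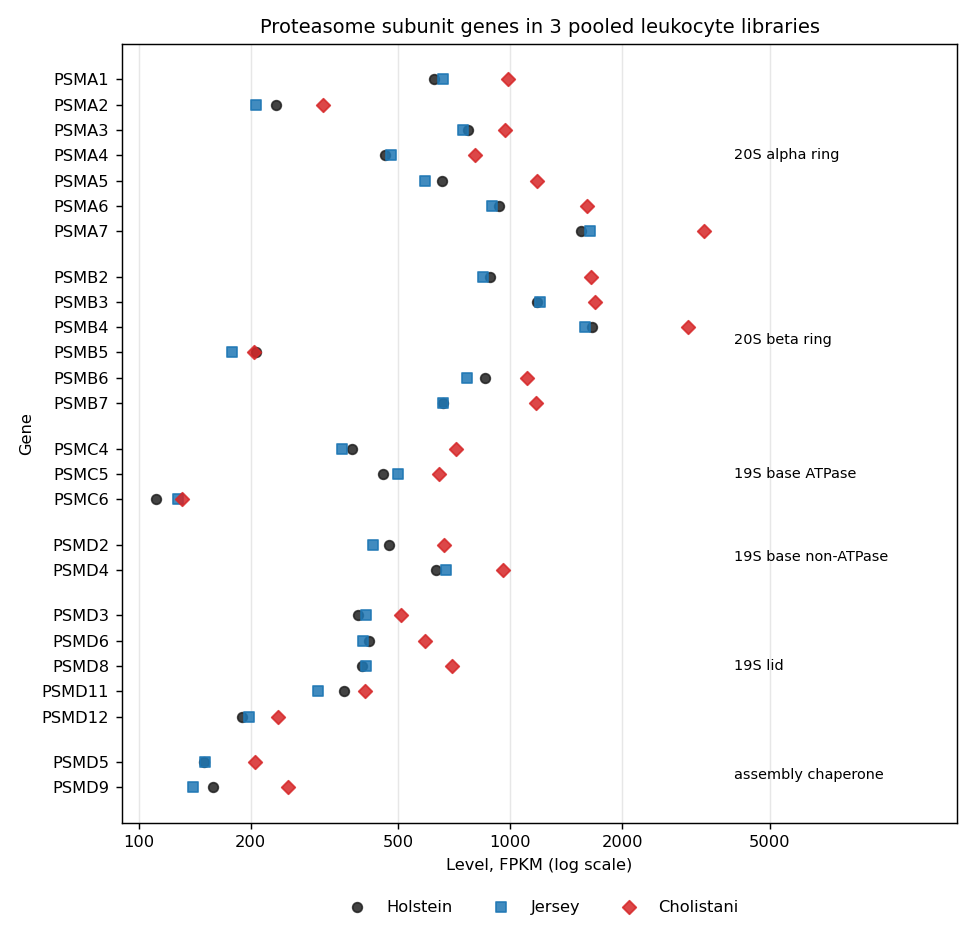
Level in FPKM (log axis) of the 25 measured subunit genes, grouped by their place in the particle, with 1 point per pooled library (circle Holstein, square Jersey, diamond Cholistani). As deposited, the diamond lies to the right of both other points for 24 genes and between them for PSMB5; these distances depend on the scale of the libraries, and with equal sums 9 genes were higher in Cholistani than in Holstein.

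The alpha ring, which gates the entrance of the core, was measured completely. PSMA7 had 1550, 1641 and 3330 FPKM, the highest alpha subunit in each library. PSMA6 had 934, 895 and 1611 FPKM, PSMA5 655, 589 and 1182 FPKM, and PSMA4 460, 479 and 802 FPKM. For these 4 genes the Cholistani value remained the highest of the 3 under every scale tried. PSMA1 (623, 661 and 989 FPKM) and PSMA3 (768, 747 and 970 FPKM) were higher in Cholistani than in Holstein as deposited and lower once the sums were equal. PSMA2 was the lowest alpha subunit, at 234, 207 and 314 FPKM, and its direction against Holstein turned in the same way. The locus given for PSMA7 covers 1150 kb of chromosome 13 (54710905 to 55860966 on btau4.0) and has 42 other models inside, 23 of them above 0. The model named ADRM1 has the same locus, so this interval may not be the extent of the PSMA7 model itself. Whether fragments of other genes count towards the PSMA7 value was not tested.

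In the beta ring, 6 of 7 genes were measured, including all 3 that encode catalytic subunits. The structural subunit gene PSMB4 had 1663, 1593 and 3016 FPKM. PSMB3 had 1182, 1201 and 1696 FPKM, and PSMB2 had 880, 847 and 1654 FPKM. All 3 were highest in Cholistani as deposited, and with equal sums PSMB2 and PSMB4 remained above Holstein while PSMB3 fell below it (log2 fold -0.16). Of the catalytic subunits, PSMB6, the caspase-like site, had 857, 765 and 1112 FPKM, and PSMB7, the trypsin-like site, had 659 FPKM in both taurine libraries and 1174 in Cholistani. PSMB5, which carries the chymotrypsin-like site, stood apart from the rest of its ring.

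The PSMB5 level was 207, 179 and 205 FPKM. As deposited, it was the only measured member whose Cholistani value lay between both taurine values. With equal sums the Cholistani value of PSMB5 lay below both, and those of PSMA2, PSMD2 and PSMD9 lay between. PSMB5 was the lowest measured beta subunit in each library. Its log2 fold between Cholistani and Holstein was -0.02, whereas the other 5 beta subunits had folds of 0.38 to 0.91, and it was negative under every scale (-0.69 with equal sums and -0.19 after centring). Against Jersey the fold of PSMB5 was 0.20 as deposited and -0.40 with equal sums. The gene lies on chromosome 10 from 22111674 to 22117192, and no other model lies inside its span.

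The 19S regulator was less abundant at the messenger level than the core in every library. The median of its 10 measured subunits was 394, 405 and 617 FPKM, and the median of 13 core subunits was 768, 747 and 1174 FPKM. The core median was thus 1.95, 1.84 and 1.90 times the regulator median, a ratio that is not affected by scaling. Only 10 of 17 listed regulator subunits entered these medians.

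Of the 6 ATPases, which unfold the substrate, 3 were measured, and they differed from each other. PSMC5 had 454, 500 and 642 FPKM. PSMC4 had 374, 353 and 717 FPKM, which moved it from rank 18 of 25 in both taurine libraries to rank 13 in Cholistani. PSMC6 was at the bottom of the order in all libraries, with 111, 128 and 131 FPKM, and its Cholistani value differed little from the Jersey value (log2 fold 0.04). PSMC4 was higher in Cholistani than in both taurine libraries under every scale, and PSMC6 was lower than Holstein with equal sums (-0.44). The locus given for PSMC6 spans 138 kb of chromosome 10 with 1 other expressed model inside. That of PSMC4 spans 59.2 kb of chromosome 18, also with 1.

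Among the other subunits of the base, PSMD2 and PSMD4 were measured. PSMD4, a receptor that binds ubiquitin chains, had 633, 672 and 958 FPKM and was the most abundant 19S member of each library. PSMD2, a scaffold that docks shuttle proteins and the deubiquitinase USP14, had 471, 427 and 662 FPKM. Both were highest in Cholistani as deposited, but not against Holstein with equal sums (log2 folds -0.08 and -0.19).

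The lid, which holds the deubiquitinating subunit PSMD14 (not matched here), was represented by 5 of 8 genes. PSMD6 had 418, 402 and 591 FPKM, and PSMD3 had 389, 410 and 508 FPKM. PSMD11 had 358, 303 and 406 FPKM, and PSMD12 had 190, 198 and 237 FPKM. As deposited the Cholistani value of each was the highest, but by little for PSMD11 (log2 fold 0.18 against Holstein), and all 4 fell below Holstein with equal sums. PSMD8 was listed at 2 positions on chromosome 18: the more abundant model, from 47786814 to 47792807, had 400, 409 and 699 FPKM, and the other, from 47651063 to 47657054, had 216, 236 and 581 FPKM. The log2 fold of the 2 models differed (0.81 and 1.42 between Cholistani and Holstein), and how reads were shared between 2 copies of 1 gene is uncertain.

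PSMD5 and PSMD9 help to assemble the base and are absent from the finished particle. Their levels were among the 5 lowest of the 25 genes in each library: PSMD5 had 149, 151 and 205 FPKM, and PSMD9 had 158, 140 and 251 FPKM. Leaving both out changed no count of members past a fold of 2. PSMD9 was among the 12 members past a fold of 1.5 in each comparison with Cholistani.

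Between the taurine libraries the subunit genes were nearly level. The log2 fold between Jersey and Holstein ranged from -0.24 for PSMD11 to 0.20 for PSMC6, with a median of -0.04 beside 0.00 over all models. With equal sums the median was -0.12 beside -0.03 over all models. On that scale 5 of 25 folds were positive, against 12 as deposited. None of the 25 genes differed by 2-fold, where 7.99% of all models were higher and 4.7% lower. Among the 5464 models of like level, whose mean lay within the range of the members (123 to 2174 FPKM), these shares were 2.05% and 0.714%. At a fold of 1.5 the count was 0 in both directions, where 11.8% of all models were higher and 8.27% lower. Of models of like level, 4.3% were higher and 2.84% lower. The SD of the folds over the members was 0.12, and over the models of like level it was 0.71. The second SD includes very large folds, such as those of U3 (7.08) and SNORA42 (8.73), so it overstates the typical spread.

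Between Cholistani and Holstein, 24 of 25 genes had a positive fold as deposited, but only 9 did so with equal sums. The log2 folds ranged from -0.02 for PSMB5 to 1.10 for PSMA7, with a median of 0.52, or 1.44-fold. Only PSMA7 was at least 2-fold higher, 4% of the members against 19.7% of all models and 15.4% of models of like level. None was 2-fold lower, against 13.7% of all models and 4.45% of models of like level. At a fold of 1.5, 12 members were higher (48%) against 32.4% of all models and 34.9% of models of like level. None was lower by 1.5-fold, against 21.1% of all models and 9.85% of models of like level. With equal sums the count higher by 1.5-fold was 0, against 15.3% of all models. On that scale only PSMB5 was lower by 1.5-fold, against 43.4% of all models. After centring 9 members were higher, against 26.1%, and none was lower, against 25.8%. The 12 genes as deposited were PSMA1, PSMA4 to PSMA7, PSMB2, PSMB4, PSMB7, PSMC4, PSMD4, PSMD8 and PSMD9. As deposited, the members thus showed moderate folds mostly in 1 direction, and few large ones.

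Read relative to other genes, the folds depended less on the scale. Of the 25 members, 24 lay above the median fold of all models as deposited and 22 with equal sums, and 21 lay above the median of models of like level, which was 0.33. The member median exceeded that of all models by 0.37, 0.27 with equal sums, and exceeded that of models of like level by 0.19. The 4 members below the median of like models were PSMB5, PSMC6, PSMD11 and PSMD12. The SD of the folds was 0.27 over the members and 1.19 over models of like level. The second SD again includes very large folds, such as those of U3 (8.84) and SNORA41 (-8.15), and overstates the typical spread.

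The comparison of Cholistani with Jersey shares the Cholistani library with the one above and is not independent of it. All 25 folds were positive as deposited and 12 with equal sums, with a median of 0.58 beside 0.12 over all models. PSMA7 (log2 fold 1.02), PSMC4 (1.02) and PSMA5 (a ratio of 2.01) were at least 2-fold higher, 12% of the members against 17.2% of all models and 12.9% of models of like level. None of these 3 calls remained with equal sums, after centring or after scaling by the median. No member was 2-fold lower, against 14.2% of all models and 4.01% of models of like level. At a fold of 1.5, 12 members were higher against 29.4% of all models and 31.8% of models of like level. None was lower by 1.5-fold, against 21.8% of all models and 9.15% of models of like level. With equal sums the count higher by 1.5-fold was 0, against 14.03% of all models, and after centring it was 10, against 24.2%. No member was lower by 1.5-fold with equal sums, against 42.1% of all models. For 22 genes the distance of Cholistani to the nearer taurine library was larger than the distance between Holstein and Jersey as deposited, and the exceptions were PSMB5, PSMC6 and PSMD11. The same count was not made over all models or with equal sums, so it is not read as a trait of these genes. Models of like level also had positive median log2 folds of Cholistani over Holstein (0.33) and over Jersey (0.30) as deposited.

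**Figure D2:**
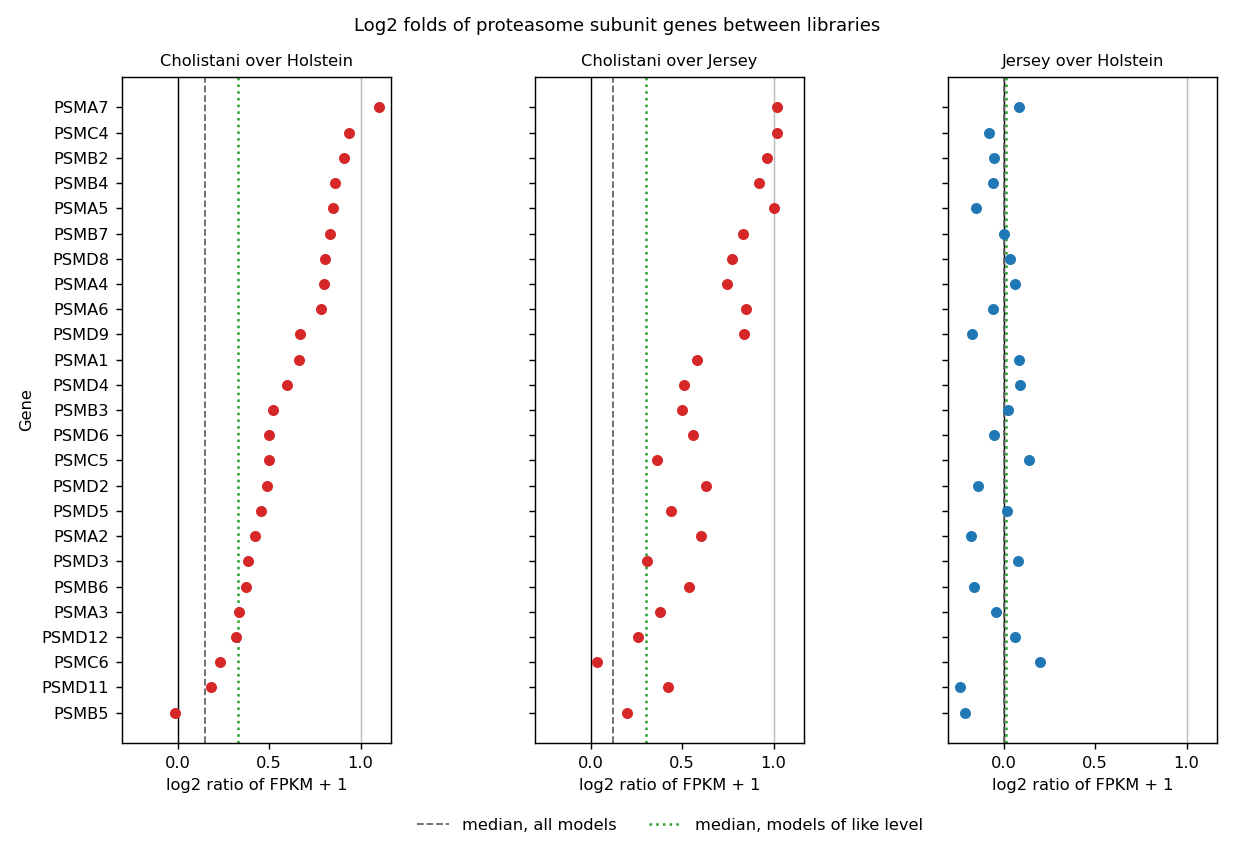
Log2 ratio of FPKM + 1 for each of the 25 subunit genes in 3 comparisons, ordered by the ratio of Cholistani to Holstein, with 1 point per gene; the dashed line is the median of all 15284 models, the dotted line the median of 5464 models of like level, and the grey line a 2-fold difference. The values are as deposited, and with equal sums 16 of 25 points of the first panel and 13 of the second would lie below 0. The points of the third panel lie within 0.24 of 0 as deposited. With equal sums they would reach -0.32 (PSMD11), and 5 would lie above 0.

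**Figure D3:**
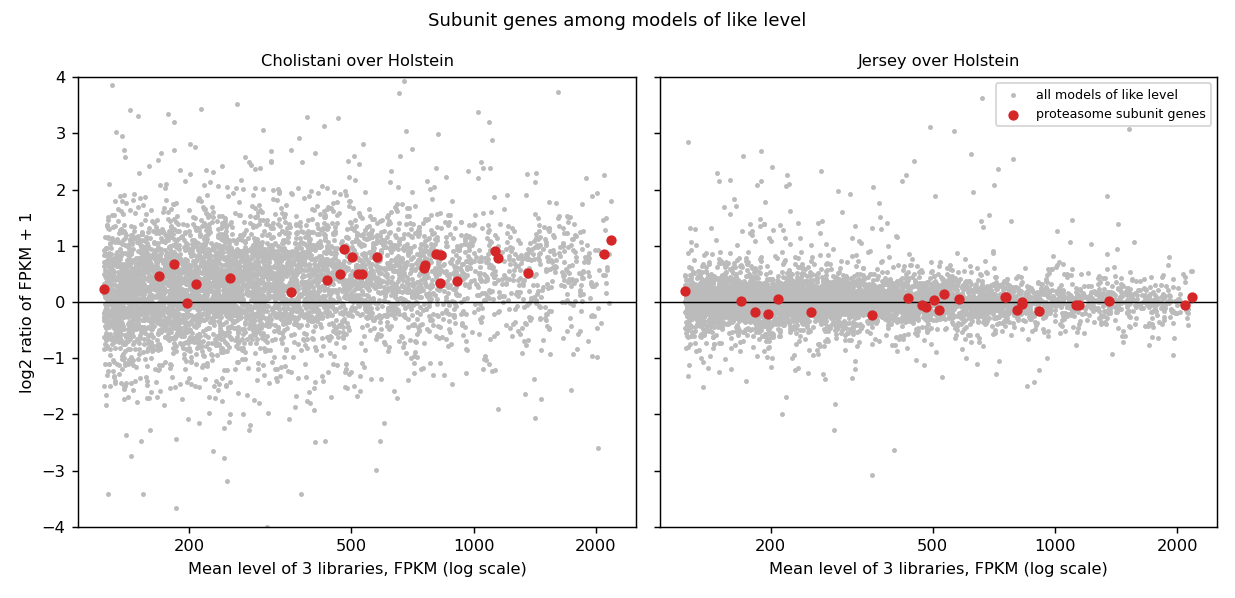
Log2 ratio of FPKM + 1 as deposited against the mean level of the 3 libraries (log axis) for 5464 gene models within the level range of the subunit genes (grey) and for the 25 subunit genes (red), with 1 point per model; 92 models lie beyond the vertical axis in at least 1 panel. The red points form a narrow band in both panels, above 0 for 24 genes in the left panel (9 with equal sums) and around 0 in the right panel.

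The balance among the subunits could be followed without regard to scale by dividing each level by the median subunit of the same library. Relative to this median, PSMA7 gained 0.46 on the log2 scale from Holstein to Cholistani, PSMC4 gained 0.30 and PSMB2 0.27. The relative level of PSMB5 fell by 0.66, that of PSMD11 fell by 0.46 and that of PSMC6 fell by 0.41. A drop of over 0.25 was also found for PSMD12 (-0.32), PSMA3 (-0.30), PSMB6 (-0.27) and PSMD3 (-0.26). From Holstein to Jersey the same measure stayed between -0.30 (PSMD11) and 0.14 (PSMC6), with PSMB5 at -0.27. From Jersey to Cholistani PSMA7 and PSMC4 each gained 0.44, PSMA5 gained 0.42 and PSMB2 gained 0.38. Of the genes that fell from Holstein, PSMC6 (-0.55), PSMB5 (-0.38), PSMD12 (-0.32) and PSMD3 (-0.27) also fell most from Jersey. PSMA3 (-0.20), PSMD11 (-0.16) and PSMB6 (-0.04) fell less, so several of these shifts depend on the taurine library used.

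Despite these shifts the order of the genes was much the same in all libraries. Over the 25 genes, Spearman's rho between the levels in Holstein and Jersey was 0.985 (Pearson's r of log2 values 0.994). Cholistani levels had a rho of 0.964 with Holstein (r 0.982) and of 0.951 with Jersey (r 0.981). PSMA7, PSMB4 and PSMB3 took the first 3 ranks in each library. Fold and level were related in part. The fold between Cholistani and Holstein had a rho of 0.51 and an r of 0.58 over the 25 genes with the level in the Jersey library, which enters neither side of the fold. Over 5440 models of like level above 0 in Jersey, the same values were -0.04 and -0.12. The genes share libraries and are not independent replicates, so these are descriptions across genes.

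By place in the particle, the median log2 fold between Cholistani and Holstein was 0.79 over 7 alpha subunits, 0.68 over 6 beta subunits, 0.50 over 3 ATPases, 0.54 over the other 2 base subunits, 0.38 over 5 lid subunits and 0.56 over both assembly chaperones. The ranges overlapped, from 0.34 to 1.10 for the alpha ring and from 0.18 to 0.81 for the lid. Against Jersey the medians were 0.74, 0.69, 0.36, 0.57, 0.42 and 0.64 in the same order. With equal sums the median against Holstein stayed positive for the alpha ring (0.11, with 4 of 7 genes positive). It was -0.0016 for the beta ring (3 of 6 positive), -0.18 for the ATPases, -0.14 for the other base subunits, -0.29 for the lid and -0.11 for the chaperones, with 1, 0, 1 and 0 positive genes.

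The 25 genes were spread over 13 chromosomes, with 6 on chromosome 19 (PSMB3, PSMB6, PSMC5, PSMD3, PSMD11 and PSMD12) and 4 on chromosome 3 (PSMA5, PSMB2, PSMB4 and PSMD4). The folds between Cholistani and Holstein of the 6 genes on chromosome 19 lay between 0.18 and 0.52 and those of the 4 genes on chromosome 3 between 0.60 and 0.91, a pattern noticed after the values were seen and not tested. The span of the deposited locus, which may exceed that of the gene, was weakly related to the log2 fold (rho of 0.17 and r of 0.31 over the 25 genes). The loci of PSMA7, PSMB7 and PSMC6 spanned over 100 kb. Without these 3 no member reached a 2-fold difference between Cholistani and Holstein (0 of 22), beside 19.7% of all models higher and 13.7% lower. The median log2 fold was then 0.51.

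Each constitutive catalytic subunit was less abundant than its inducible counterpart in every library. PSMB8 had 4468, 4538 and 12415 FPKM, which was 21.6, 25.4 and 60.6 times the level of PSMB5. PSMB9 had 2662, 2709 and 7729 FPKM, or 3.11, 3.54 and 6.95 times the level of PSMB6. PSMB10 had 1577, 1821 and 4242 FPKM, or 2.39, 2.76 and 3.61 times the level of PSMB7. As ratios within a library these values do not depend on scaling: between Cholistani and Holstein they differed by 2.81, 2.24 and 1.51 times, and between Jersey and Holstein by 1.18, 1.14 and 1.15 times.

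**Figure D4:**
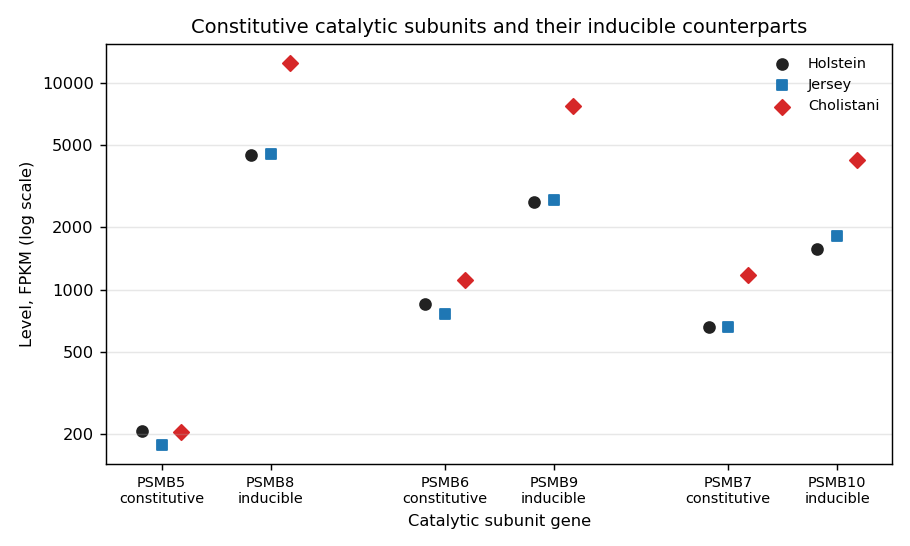
Level in FPKM (log axis) as deposited of the constitutive catalytic subunit genes PSMB5, PSMB6 and PSMB7 and of the inducible genes that replace them in the immunoproteasome, with 1 point per pooled library. In each pair the inducible gene lies higher in all 3 libraries, and the distance is widest between PSMB8 and PSMB5 in Cholistani (60.6 times).

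Of 48 other genes of the ubiquitin and proteasome pathway, 38 were measured. In Cholistani 9 of them (23.7%) exceeded Holstein by 2-fold or more as deposited and none was as far below it, beside the 19.7% and 13.7% of all models, with a median log2 fold of 0.54. With equal sums none was higher and 4 were lower (10.5%), where 11.6% of all models were higher and 27.5% lower. The 9 were all 5 genes of the immunoproteasome list, PSMG3, UBE2L3, MAFF and the more abundant of 2 models named SHFM1. Log2 folds of the 5 immunoproteasome genes ran from 1.39 for PSME2 to 1.67 for PSME1, both subunits of the PA28 activator. These 5 kept a positive log2 fold with equal sums (median 0.80, beside 1.47 as deposited). Against Jersey 9 were also higher, beside 17.2% of all models, and none was as far below it, beside 14.2%. With equal sums 1 was higher (2.6%) and 2 were lower (5.3%), where 10.4% of all models were higher and 26.2% lower. MAFF was not among the 9 against Jersey, and ADRM1, a ubiquitin receptor of the base (464, 452 and 917 FPKM), was. The model named ADRM1 has the same start and end as that of PSMA7. Between Jersey and Holstein none of the 38 differed by 2-fold, where 7.99% of all models were higher and 4.7% lower.

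Other genes that build or dock on the particle had mixed values. Among 6 assembly chaperones, PSMG3 had 111, 129 and 311 FPKM, and PAAF1, which binds the ATPases, had the smallest fold, with 55.6, 60.5 and 68.0 FPKM. The median fold of this list was 0.73 as deposited and 0.05 with equal sums. SHFM1, the small DSS1 subunit of the lid, had values that moved in opposite directions at 2 positions (1454, 1319 and 3533 FPKM at the more abundant and 532, 682 and 247 FPKM at the other), so no direction is given for it. The 8 measured receptors, shuttles and deubiquitinases had a median fold of 0.32 as deposited and -0.35 with equal sums. Among ubiquitin genes only RPS27A, a ubiquitin-ribosomal fusion, was measured, and it likewise had 9999, 10709 and 6495 FPKM at one position and 6192, 7723 and 12627 FPKM at another. The inhibitor PSMF1 had 357, 333 and 548 FPKM, and the nuclear activator PSME3 424, 369 and 549 FPKM, both lower than Holstein on average with equal sums (median -0.18, beside 0.50 as deposited).

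Upstream of the proteasome, the ubiquitin-conjugating enzyme gene UBE2L3 had 591, 545 and 1283 FPKM, and UBE2R2 407, 396 and 383 FPKM, the extremes of 8 measured enzymes. In the list of the segregase p97, VCP, which encodes p97 itself, had 974, 938 and 1166 FPKM, and its cofactor NSFL1C 307, 298 and 561 FPKM. The folds of these enzymes and cofactors had medians of 0.59 and 0.28 as deposited and -0.09 and -0.40 with equal sums.

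Of 5 measured regulators of proteasome genes, 3 had a negative fold against Holstein as deposited and 4 with equal sums. NFE2L1, a transcription factor that activates proteasome genes when proteasome activity is low, had 391, 357 and 268 FPKM. NGLY1 and DDI2, which process the NFE2L1 protein into its active form, had 124, 102 and 91.4 FPKM and 142, 121 and 95.7 FPKM. For these 3 genes the Cholistani value was the lowest of the 3 libraries as deposited (log2 folds against Holstein of -0.55, -0.43 and -0.56), and equal sums lower it further. The related factor NFE2L2 had 254, 214 and 220 FPKM, and their small MAF partners had 18.3, 30.9 and 54.5 FPKM (MAFF) and 165, 177 and 174 FPKM (MAFK). The list of 5 measured regulators had a median fold of -0.20 as deposited and -0.88 with equal sums.

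The make-up of the cell pools was examined with marker lists. The leukocyte markers CD53 and CORO1A were abundant in all libraries (3315 to 16310 FPKM), the red cell gene AHSP was listed at 0 in all 3, and ALAS2 had 536, 363 and 32.3 FPKM. The haemoglobin gene HBA had listed values of 0, 11.5 and 69.3 FPKM, so the red cell genes did not move together (sums of 536, 375 and 102 FPKM). From Holstein to Cholistani the summed level of 4 measured T cell markers went from 4662 to 9757 FPKM, that of 3 B cell markers from 6542 to 16162 FPKM and that of 2 natural killer markers from 975 to 2980 FPKM. The sum of 5 neutrophil markers was 36641 and 31773 FPKM, that of 3 platelet markers 978 and 874 FPKM, and the only measured monocyte marker, CD14, had 342 and 398 FPKM. Within these lists the genes differed. The T cell sum rose mostly with CD3E (2041, 2127 and 6016 FPKM), while CD3G had 1016, 1072 and 1280 FPKM. CD3D and CD5 were 1.53 and 1.54 times as high in Cholistani as in Holstein. The B cell sum was mostly CD79A (5281, 6190 and 14273 FPKM), while PAX5 had 296, 381 and 145 FPKM. The neutrophil sum was mostly S100A8, S100A9 and S100A12, while CXCR2 had 33.5, 7.62 and 598 FPKM and CSF3R 657, 532 and 1976 FPKM. The platelet sum was mostly PPBP (821, 939 and 621 FPKM), while GP9 had 84.5, 104 and 190 FPKM. In Jersey the T cell, B cell, natural killer, neutrophil and platelet sums were 4651, 8052, 721, 28807 and 1094 FPKM, and CD14 had 237 FPKM. Of 9 measured T cell, B cell and natural killer markers, 8 had a positive fold between Cholistani and Holstein as deposited (5 with equal sums), as had 24 of 25 subunit genes (9 with equal sums), and their part in the result was not tested.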

How the data were processed

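Leukocyte mRNA of 3 pooled samples, 1 per breed, was sequenced by the authors, who placed the reads on btau4.0. The submitters' processing notes name TopHat 1.0.14, Bowtie 0.12.7 and Cufflinks 0.9.3. Junctions found in each sample were combined and used with those of Ensembl release 60, and reads with over 20 locations were dropped. The deposited values are FPKM per gene model, to which the authors had applied upper-quartile normalization and a correction of sequence bias, and nothing more was done to them before the comparisons.

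Members were matched by symbol or bovine entry name, taking the model with the highest mean FPKM. Positions were made 1-based by adding 1 to each start. Models with 3 estimates, above 0 in any library, formed the background. Folds of at least 2, and of at least 1.5, were counted on log2(FPKM + 1), with a pseudocount of 1 FPKM. No test, error or interval was computed, since each breed has 1 library and the fragments behind a value are unknown. The members, lists and rules were chosen with earlier results of these data known. All members were named, and for the 8 pathway lists the extremes of the fold between Cholistani and Holstein among genes reaching 50 FPKM in either, those past a fold of 2 and the inducible catalytic subunits; other genes (NGLY1, NFE2L2, MAFK) were named after their values were seen. Spans, positions and the background of models of like level were also added after the values were seen. A further 8 lists held cell type markers. The fold counts were tested on simulated data. Python 3.11.15 and pandas 2.3.3 were used.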

Additional observations from a re-analysis of the deposited data

How the results depend on the processing

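The median log2 fold of the members reversed only when the FPKM sums were set equal, to -0.16 for Cholistani against Holstein and -0.019 for Cholistani against Jersey. It kept its sign, with a move of over 0.1, after centring the folds on models with at least 10 FPKM (0.34 and 0.43) and after scaling by the median of models with at least 10 FPKM in all 3 libraries (0.36 and 0.45). Under each of these 3 scales the number of members at least 2-fold higher became 0 in both comparisons, where 10.4% to 16.7% of all models were higher. This number was 2 against Holstein with the FPKM of models of 1 name summed (PSMD8 was added to PSMA7), beside 19.7% of all models. It was 0 of 22 against Holstein without the 3 members whose deposited loci span over 100 kb (an alternative chosen after seeing the data), beside the same 19.7%. Against Jersey it was 1 with a pseudocount of 10 FPKM, beside 13.4% of all models. At a fold of 1.5 it was 12 in both comparisons as deposited, and in combinations chosen after seeing the data it was 0 in both with equal sums (1 lower against Holstein, PSMB5) and 9 and 10 both after centring and after scaling by the median. No member was at least 2-fold lower under any of the 14 alternatives, and no count or median between Jersey and Holstein moved past these limits. The share of the FPKM sum with models summed or chaperones left out, the median FPKM per subcomplex with models summed, and the correlation of the levels as Pearson's r stayed within 1.5 times their values. The median folds per subcomplex of Cholistani against either taurine library changed sign with equal sums, except those of the alpha ring and, against Jersey, of the beta ring and chaperones. No paired analysis was possible because each breed has 1 library. Promoter and protein properties planned for the members were not run. The spread between animals or libraries is unknown, so no fold could be set against it. The PSMA7 value, the only one past a fold of 2 against Holstein, comes from a model whose deposited locus holds many others and is the same as that of ADRM1.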
